A study of Mus musculus with 12 samples.

Results

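The data concern 10 genes that move calcium into and out of the endoplasmic reticulum (ER) in MIN6 cells, chosen by name from the 54022 genes of the deposited tables. They were the ER calcium pumps Atp2a2 and Atp2a3, the inositol trisphosphate (IP3) receptors Itpr1, Itpr2 and Itpr3, the ryanodine receptors Ryr2 and Ryr3, the ER calcium sensors Stim1 and Stim2, and the plasma membrane channel Orai1. Their paralogs Atp2a1, Ryr1, Orai2 and Orai3 were described beside them. All 10 genes passed the filter on low counts and were among the 16222 genes tested.

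MIN6 is a mouse insulinoma line that secretes insulin. The cells received 100 nM trimethylamine N-oxide (TMAO), a metabolite formed from dietary choline, or vehicle for 18 h and were exposed to low or high glucose. RNA from 3 biological replicates of each of the 4 conditions (low glucose with vehicle, low glucose with TMAO, high glucose with vehicle, high glucose with TMAO) was sequenced. All libraries came from this single line.

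In a β-cell, the ER is filled with calcium by the Serca pumps, which hydrolyse ATP to move calcium from the cytosol into the lumen. IP3 receptors and ryanodine receptors let calcium out again when they bind IP3 or calcium. When the store runs low, the Stim proteins in the ER membrane sense the fall in luminal calcium and open Orai channels in the plasma membrane, a route called store-operated entry. In β-cells these steps shape the cytosolic calcium signals that drive insulin secretion.

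The libraries held between 16793162 and 22340542 counts, and the 20 most counted genes took between 9.25% and 10.3% of each. All 8 β-cell markers examined were detected in all 12 libraries, with Ins2 between 22781 and 27445 FPKM, a count scaled to gene length and library size. The summed FPKM of these 8 markers was 40146 to 43676 in low and 43801 to 45366 in high glucose with vehicle, without overlap, and 39142 to 44797 in low and 43447 to 46536 in high glucose with TMAO. Gcg, the glucagon gene of α-cells, was also measured, at between 200 and 227 FPKM. The summed FPKM of 6 markers of other islet endocrine cells was 200.9 to 218.5 in low glucose and 224.3 to 229.7 in high glucose, without overlap. Gcg made up nearly all of this sum, and each of the other 5 markers was at most 2.11 FPKM. Of these 6 markers, 4 were above 0 in all libraries, and Hhex was at 0 counts. The summed FPKM of 6 immune, endothelial and stromal markers was 3.29 to 4.16 with vehicle and 4.40 to 4.54 with TMAO in low glucose, and 4.69 to 5.30 with vehicle and 4.58 to 4.64 with TMAO in high glucose. It did not overlap between glucose levels, nor between vehicle and TMAO at either level, where TMAO was higher in low and lower in high glucose. Cd68 made up most of this sum, at between 2.88 and 4.84 FPKM (69 to 120 counts per library). Each of the other markers of this set was at most 0.521 FPKM, and Ptprc and Col3a1 were at 0 counts. The summed FPKM of 5 exocrine markers was 0.711 to 1.49 in low and 0.796 to 1.32 in high glucose. The part of these markers in the glucose and TMAO results was not tested. In bulk RNA, a change in the number of cells expressing a gene and a change in RNA per cell cannot be told apart.

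The results centre on 1 pump gene, Atp2a2, which encodes Serca2 (GRCm38, chr5:122453513-122502225, minus strand). The deposited counts are per gene and do not separate its 2 protein-coding transcripts, whose reading frames share their first 2983 bases and differ only at the end. Shown are the last 24 shared coding bases in lower case and the bases particular to each transcript, down to the stop codon, in capitals (GENCODE M21). The short end (14 bases, chr5:122454291-122454304) belongs to the Serca2a form and the long end (152 bases, chr5:122457151-122457302) to the Serca2b form, the one commonly reported in β-cells.
Serca2a coding end: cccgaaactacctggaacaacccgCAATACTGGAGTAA
Serca2b coding end: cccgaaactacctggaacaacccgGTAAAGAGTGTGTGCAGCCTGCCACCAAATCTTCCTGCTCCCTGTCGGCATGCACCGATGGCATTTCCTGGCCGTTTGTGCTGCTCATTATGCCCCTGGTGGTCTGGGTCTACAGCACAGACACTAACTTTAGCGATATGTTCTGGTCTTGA

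Per kilobase, the pumps stood far above every other gene of the group. Atp2a3, which encodes Serca3, had a mean of 348 ± 12.1 FPKM (SD, n = 12 libraries) and ranked 58th of 16222 tested genes. Atp2a2 had a mean of 303 ± 10.1 FPKM (SD, n = 12) and ranked 78th. Atp2a3 was higher than Atp2a2 in 12 of 12 libraries, with a ratio of their FPKM between 1.05 and 1.23. The skeletal muscle pump gene Atp2a1 was counted at only 0.239 FPKM on average, from 6 to 23 counts per library. Rabep2, on the other strand, overlaps 763 bases (21.9%) of its exons, and the strand setting of the counting was not given in the sources used here. The genes for the Serca inhibitors phospholamban (Pln) and sarcolipin (Sln) were at 0 counts in all 12 libraries. Mrln, which encodes the Serca inhibitor myoregulin, had a mean of 1.87 ± 0.371 FPKM (SD, n = 12), from 24 to 59 counts per library.

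The release channels were lower, and the IP3 receptors stood above the ryanodine receptors. Itpr1 had a mean of 6.19 ± 0.239 FPKM, Itpr3 2.39 ± 0.152 FPKM and Itpr2 0.407 ± 0.0451 FPKM (SD, n = 12). Itpr1 alone made up 65.9% ± 1.28 (SD, n = 12) of the summed FPKM of the 5 release channels and Ryr1. Ryr3 had a mean of 0.304 ± 0.0358 FPKM and Ryr2, the cardiac-type ryanodine receptor also described in β-cells, 0.102 ± 0.0157 FPKM (SD, n = 12). Ryr2 was therefore a gene of few reads, with 39 to 79 counts per library over 28790 bases of exon. Ryr1 had 0 to 3 counts per library and was not tested. Ryr3 shares 916 exon bases (4.83%) with Aven on the opposite strand, which had a mean of 236 counts against 109 for Ryr3. The summed FPKM of Atp2a1, Atp2a2 and Atp2a3 was 69.4 ± 2.15 times (SD, n = 12) that of these release channels and Ryr1.

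Among the store-operated entry genes, Stim2 had a mean of 12.8 ± 0.556 FPKM and Stim1 of 9.96 ± 0.371 FPKM (SD, n = 12), and Stim2 was higher in 12 of 12 libraries. Orai1 had the lowest level of the 3 Orai genes, at 2.91 ± 0.265 FPKM, below Orai2 at 6.59 ± 0.227 FPKM (SD, n = 12). Orai3 lay between 11.8 and 13.7 FPKM. Orai3 held 57.7% ± 1.15 of the summed FPKM of the 3 Orai genes and Orai2 29.3% ± 0.902 (SD, n = 12), and Orai1 the remaining 11.4% to 14.2%. The summed FPKM of the 2 Stim genes was 1.01 ± 0.0270 times (SD, n = 12) that of the 3 Orai genes.

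In the order of levels (Atp2a3, Atp2a2, Orai3, Stim2, Stim1, Orai2, Itpr1, Orai1, Itpr3, Itpr2, Ryr3, Atp2a1, Ryr2, Ryr1), some neighbours were not separated by the spread over libraries. Orai3 was above Stim2 in 8 of 12 libraries, Orai2 above Itpr1 in 9, Ryr3 above Atp2a1 in 9 and Atp2a1 above Ryr2 in 10. Orai1 was above Itpr3, and Itpr2 above Ryr3, in 12 of 12 libraries although the ranges of each pair overlapped. The remaining neighbours had ranges that did not overlap.

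**Figure D1:**
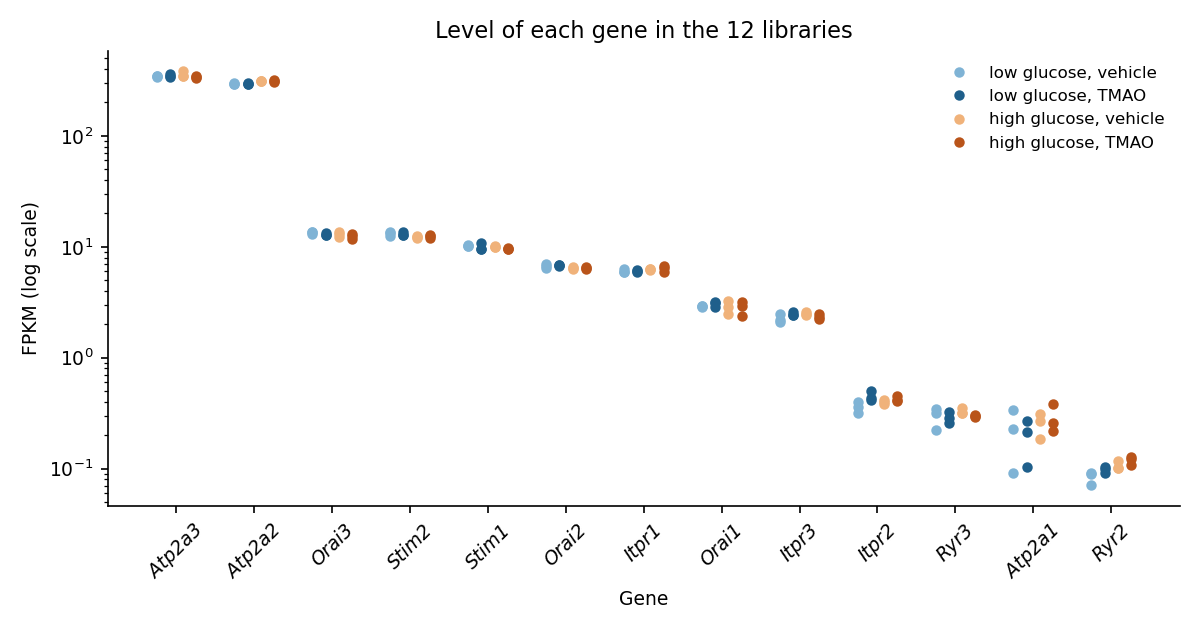
FPKM on a log axis of the 10 genes and of Atp2a1, Orai2 and Orai3 in each of the 12 libraries, coloured by condition (3 points each). Both pump genes sit between 291 and 381 FPKM, the Stim and Orai genes between 2.39 and 13.7, and Ryr2 between 0.0708 and 0.128.

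The first comparison asked which of these transcripts differed between high and low glucose, with the difference averaged over vehicle and TMAO. Atp2a2 was the 1 gene of the 10 that passed the test (adjusted p under 0.05), and it was higher in high glucose. Over all tested genes, 8.19% passed in either direction and 4.13% were higher, so 1 of 10 is near the background. The normalized count of Atp2a2 was 33280, 33681 and 34164 in low glucose with vehicle and 33753, 34011 and 33492 in low glucose with TMAO. It was 35817, 36033 and 35934 in high glucose with vehicle and 34964, 35713 and 36528 in high glucose with TMAO. The 6 high-glucose libraries were all above the 6 low-glucose libraries, a separation in this direction seen in 2.62% of tested genes.

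The difference was small. The log2 fold change of Atp2a2 was 0.087 ± 0.026 (SE; 95% confidence interval 0.035 to 0.14), a rise of 6.23%, with an adjusted p of 0.0306 (quasi-likelihood test of edgeR, Benjamini-Hochberg adjusted). Within vehicle it was 0.092 ± 0.036 (SE; adjusted p = 0.225) and within TMAO 0.082 ± 0.036 (SE; adjusted p = 0.272), so neither treatment passed alone by edgeR. By the DESeq2 Wald test Atp2a2 passed within vehicle (adjusted p = 0.0428). By edgeR none of the 10 genes passed within a treatment, against 3.3% of tested genes with vehicle and 3.64% with TMAO. The mean call for Atp2a2 was lost when any of 6 of the 12 libraries was left out. Its adjusted p was 0.0655 without low glucose with vehicle replicate 1, 0.0873 without replicate 2 of that condition, 0.0715 and 0.0821 without high glucose with vehicle replicates 2 and 3, and 0.0757 and 0.103 without high glucose with TMAO replicates 2 and 3. Of 7 other settings 1 lost the call, the fit without a filter on low counts (adjusted p = 0.105). In the fits that lost the call the log2 fold change lay between 0.079 and 0.086.

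Atp2a3, the other pump, did not pass (log2 fold change 0.014 ± 0.029, SE, adjusted p = 0.852). In vehicle its normalized counts were 34317, 34593 and 33917 in low and 38008, 34645 and 34814 in high glucose. These did not overlap, as for 9.28% of tested genes in this direction, although replicates 2 and 3 in high glucose were close to the low-glucose libraries. In TMAO they were 34679, 33699 and 35839 in low and 34142, 34286 and 33302 in high glucose, which overlapped. The sign of the mean difference turned without high glucose with vehicle replicate 1 (log2 fold change -0.0070). The FPKM ratio of Atp2a3 to Atp2a2 averaged 1.18 ± 0.0336 in low and 1.12 ± 0.0561 in high glucose (SD, n = 6 each), with overlapping ranges. Atp2a1 had a log2 fold change of 0.38 ± 0.29 (SE; adjusted p = 0.517).

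None of the release channels passed the test with glucose. Ryr2 had the largest difference among the 10 genes, with a log2 fold change of 0.32 ± 0.13 (SE; 95% interval 0.053 to 0.58, adjusted p = 0.144). Its normalized counts in vehicle were 49.5, 38.4 and 48.6 in low and 63.5, 55.5 and 55.2 in high glucose. With TMAO they were 54.4, 56.0 and 49.4 in low and 58.4, 66.6 and 69.3 in high glucose. High-glucose libraries were above low-glucose libraries within each treatment, but over all 12 libraries 1 low-glucose library with TMAO was above 2 high-glucose libraries with vehicle. High-glucose libraries stood entirely above low-glucose libraries for 9.28% of tested genes with vehicle and 8.98% with TMAO.

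Itpr1, the most abundant IP3 receptor transcript, had a log2 fold change of 0.058 ± 0.035 (SE; adjusted p = 0.380). Its normalized counts had a low, median and high value of 2040, 2085 and 2180 in low glucose and of 2047, 2183 and 2312 in high glucose, so they overlapped. Itpr2 (0.042 ± 0.096), Itpr3 (0.038 ± 0.055) and Ryr3 (0.10 ± 0.11) had log2 fold changes no larger than their SE, with adjusted p values of 0.872, 0.781 and 0.675. For Itpr3 the difference was 0.15 ± 0.077 (SE; adjusted p = 0.441) with vehicle and -0.070 ± 0.077 (SE; adjusted p = 0.753) with TMAO. The latter was -0.12 without high glucose with TMAO replicate 2 and -0.031 without replicate 1 of that condition. The interaction of glucose and TMAO for Itpr3 was -0.22 ± 0.11 (SE; 95% interval -0.44 to 0.0059, adjusted p = 1.00) and did not pass.

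The Stim and Orai genes had log2 fold changes below 0. Stim2, the sensor that responds to small falls in luminal calcium, had a log2 fold change of -0.083 ± 0.038 (SE; 95% interval -0.16 to -0.0061, adjusted p = 0.202) and did not pass. Its normalized counts in vehicle were 1326, 1299 and 1205 in low and 1216, 1190 and 1167 in high glucose. With TMAO they were 1243, 1305 and 1247 in low and 1212, 1244 and 1167 in high glucose. The glucose groups overlapped in vehicle, where 1 low-glucose library (1205) was below 1 high-glucose library (1216), and over TMAO 1 high-glucose library (1244) was above 1 low-glucose library (1243).

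Stim1, the principal sensor, had a log2 fold change of -0.040 ± 0.035 (SE; adjusted p = 0.591). Orai1, the pore-forming channel, had one of -0.056 ± 0.096 (SE; 95% interval -0.25 to 0.14, adjusted p = 0.826). Its normalized counts were 127, 125 and 128 in low glucose with vehicle and 141, 123 and 107 in high glucose with vehicle. With TMAO they were 134, 136 and 123 in low and 139, 128 and 103 in high glucose. The spread in high glucose covered the low-glucose values. With about 126 counts per library, the 95% interval leaves room for a fall or a rise of Orai1. Orai2 (-0.065 ± 0.042, SE, adjusted p = 0.422) and Orai3 (-0.056 ± 0.048, SE, adjusted p = 0.580) did not pass either.

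With glucose, 7 of 7 pump and release channel genes had a log2 fold change above 0 and 5 of 5 Stim and Orai genes one below 0. Of all tested genes, 49.6% were below 0 (49.3% with vehicle alone, 49.6% with TMAO alone). The median log2 fold change was 0.040 over the 10 genes, 0.058 over the pumps and release channels, -0.056 over the Stim and Orai genes and 0.0011 over all tested genes. At an unadjusted p under 0.05, 3 of the 10 genes (Atp2a2 and Ryr2 higher, Stim2 lower) were counted, against 20.1% of all tested genes. With 1 library left out, Orai1 lay between -0.11 and -0.0017 (without high glucose with TMAO replicate 3), Stim1 between -0.057 and -0.011 (without low glucose with TMAO replicate 1) and Ryr3 between 0.019 (without low glucose with vehicle replicate 1) and 0.16. Itpr2 lay between 0.0032 (without low glucose with vehicle replicate 1) and 0.082, Itpr3 between 0.013 (without high glucose with TMAO replicate 2) and 0.074 and Itpr1 between 0.036 (without high glucose with TMAO replicate 2) and 0.083. Split by treatment, 5 of 5 Stim and Orai genes were below 0 both with vehicle and with TMAO, whereas the pump and release channel genes were 7 of 7 above 0 with vehicle and 4 of 7 with TMAO. The interaction passed for 0 of the 10 genes and for 0% of the 16222 tested genes by edgeR's quasi-likelihood test. At an unadjusted p under 0.05 it counted 0 of the 10 genes and 3.36% of all tested genes.

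**Figure D2:**
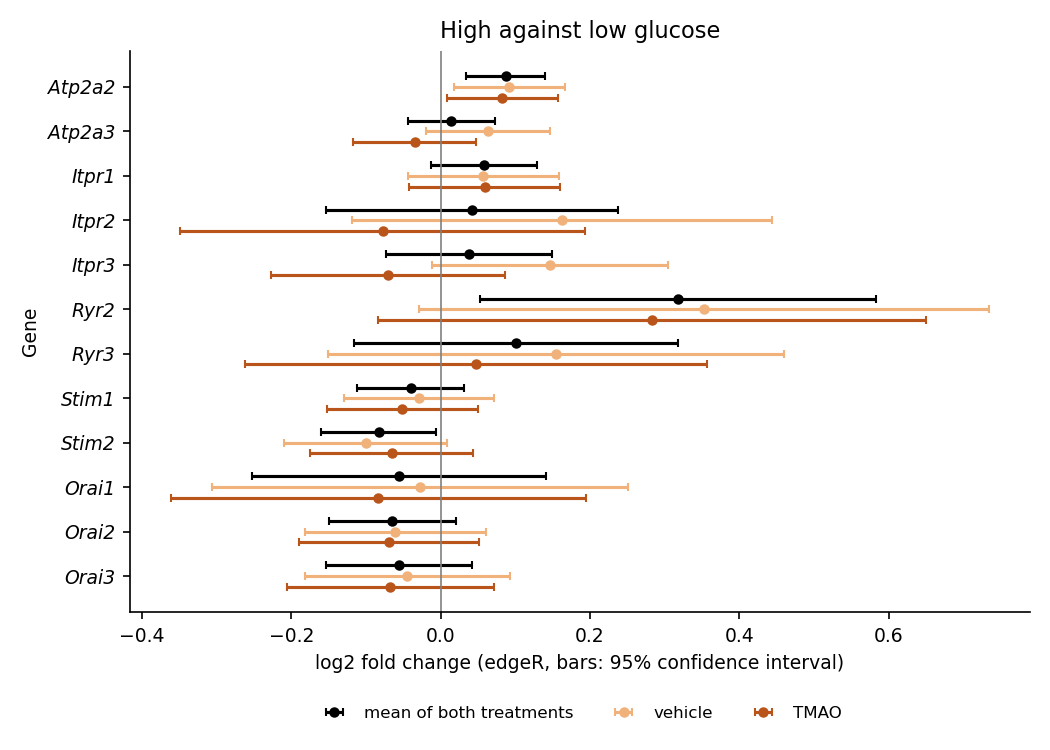
Log2 fold change of high against low glucose (edgeR) for the 10 genes, Orai2 and Orai3, with 95% confidence intervals, as the mean of both treatments and within vehicle or TMAO. The mean for Atp2a2 (0.087) has an interval above 0 and is the one that passed after adjustment, while the Stim and Orai means lie between -0.083 and -0.040.

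The second comparison set TMAO against vehicle in low glucose. None of the 10 genes passed the test, and over all tested genes 0.00616% (1 gene) passed by edgeR's quasi-likelihood test, with 2.2% at an unadjusted p under 0.05. The adjusted p of each of the 10 genes was 1.00. The log2 fold changes of both pumps were near 0, at 0.0019 ± 0.036 for Atp2a2 (95% interval -0.073 to 0.076) and 0.019 ± 0.040 for Atp2a3 (SE; -0.063 to 0.10). The interval for Atp2a2 leaves room for a fall of 4.90% or a rise of 5.43%.

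Itpr2 showed the largest difference with TMAO in low glucose. Its normalized counts were 88.1, 110 and 100 with vehicle and 121, 115 and 139 with TMAO. The groups did not overlap, which in this direction was also the case for 3.18% of tested genes. The log2 fold change was 0.33 ± 0.14 (SE; 95% interval 0.052 to 0.61, adjusted p = 1.00), and it ranked 130th by p among the tested genes. In high glucose the Itpr2 values overlapped, at 116, 111 and 107 with vehicle and 113, 126 and 116 with TMAO (log2 fold change 0.088 ± 0.14, SE, and 0.040 without high glucose with TMAO replicate 2). The difference between these 2 effects, the interaction, was -0.24 ± 0.19 (SE; adjusted p = 1.00; -0.16 without low glucose with TMAO replicate 3) and did not pass.

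Itpr3 had normalized counts of 416, 368 and 357 with vehicle and 410, 410 and 443 with TMAO in low glucose, so 1 vehicle library lay within the TMAO range. Its log2 fold change was 0.15 ± 0.077 (SE; 95% interval -0.012 to 0.30). Ryr2 had one of 0.23 ± 0.19 (SE) with overlapping groups, from the counts given above, and of 0.12 without low glucose with vehicle replicate 2. Itpr1 (0.013 ± 0.049) and Ryr3 (-0.026 ± 0.15) had values smaller than their SE.

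For store-operated entry in low glucose, TMAO gave a log2 fold change of -0.030 ± 0.049 for Stim1, -0.014 ± 0.053 for Stim2 and 0.052 ± 0.14 for Orai1 (SE). With 1 library left out, Stim1 lay between -0.086 and -0.0011 (without low glucose with TMAO replicates 1 and 3, respectively) and Orai1 between 0.023 and 0.095 (without replicates 2 and 3 of that condition, respectively). The normalized counts of Stim1 were 2023, 1974 and 1991 with vehicle and 2107, 1883 and 1874 with TMAO, with the TMAO libraries on both sides of the vehicle libraries. Orai2 (0.0085 ± 0.059) and Orai3 (-0.059 ± 0.067) also had intervals that included 0. The 95% intervals leave room for changes of Stim2 between -8.11% and 6.79%, and of Orai1 between -14.4% and 25.6%.

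In high glucose the Stim and Orai genes did not pass with TMAO either, where 0% of tested genes passed by edgeR's quasi-likelihood test and 868 of them had an unadjusted p under 0.05. Stim1 had normalized counts of 1994, 1934 and 1942 with vehicle and 1909, 1867 and 1884 with TMAO. The TMAO libraries were all below the vehicle libraries, as for 5.65% of tested genes, and the log2 fold change was -0.053 ± 0.050 (SE; adjusted p = 0.945). Stim2 (0.021 ± 0.054), Orai1 (-0.0034 ± 0.14), Orai2 (0.00023 ± 0.059) and Orai3 (-0.082 ± 0.068) overlapped between treatments. The sign for Orai2 turned under other settings. Among the pumps and release channels the log2 fold changes ran from -0.13 (Ryr3) to 0.16 (Ryr2), and none passed. The TMAO libraries were also all below the vehicle libraries for Atp2a3 (-0.079 ± 0.040, SE, adjusted p = 0.910) and Ryr3 (adjusted p = 0.951), so 3 of the 10 genes did not overlap in this direction. Without high glucose with vehicle replicate 1, the log2 fold change was -0.033 for Atp2a3, -0.075 for Ryr3 and -0.043 for Orai3. The interaction of TMAO and glucose for the Stim and Orai genes lay between -0.056 (Orai1) and 0.035 (Stim2), the latter 0.0077 without low glucose with vehicle replicate 1 and 0.076 without replicate 3 of that condition.

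**Figure D3:**
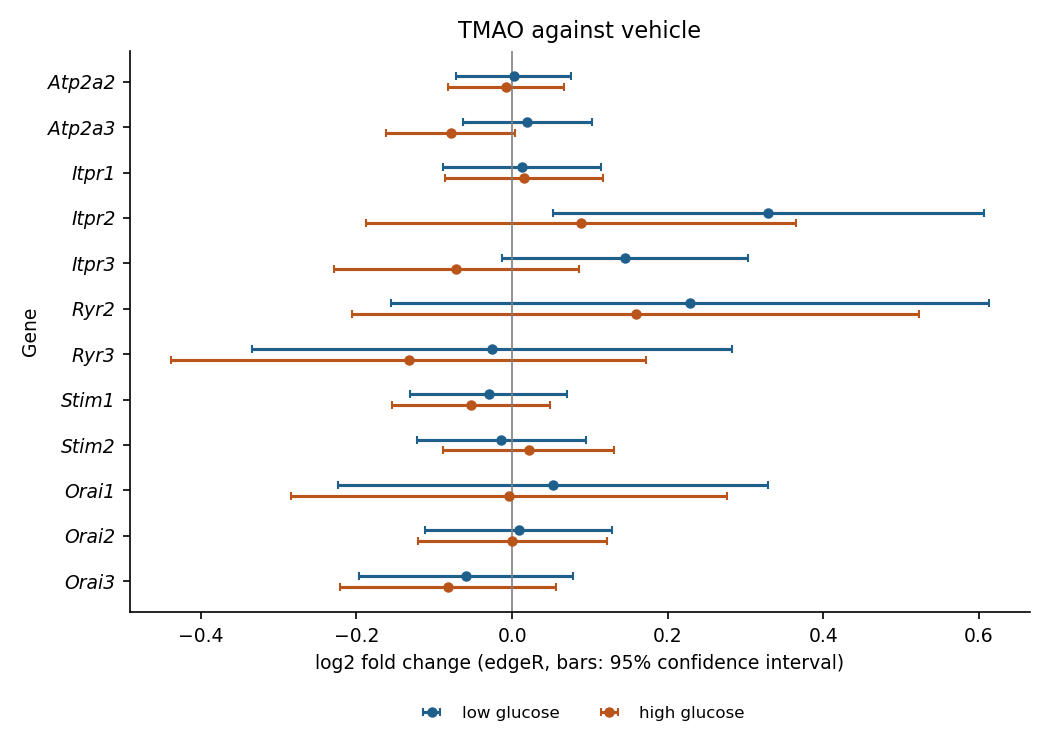
Log2 fold change of TMAO against vehicle (edgeR) with 95% confidence intervals in low and high glucose for the 10 genes, Orai2 and Orai3. In low glucose, Itpr2 (0.33) has an interval above 0 before adjustment, and all other intervals in both glucose levels include 0.

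**Figure D4:**
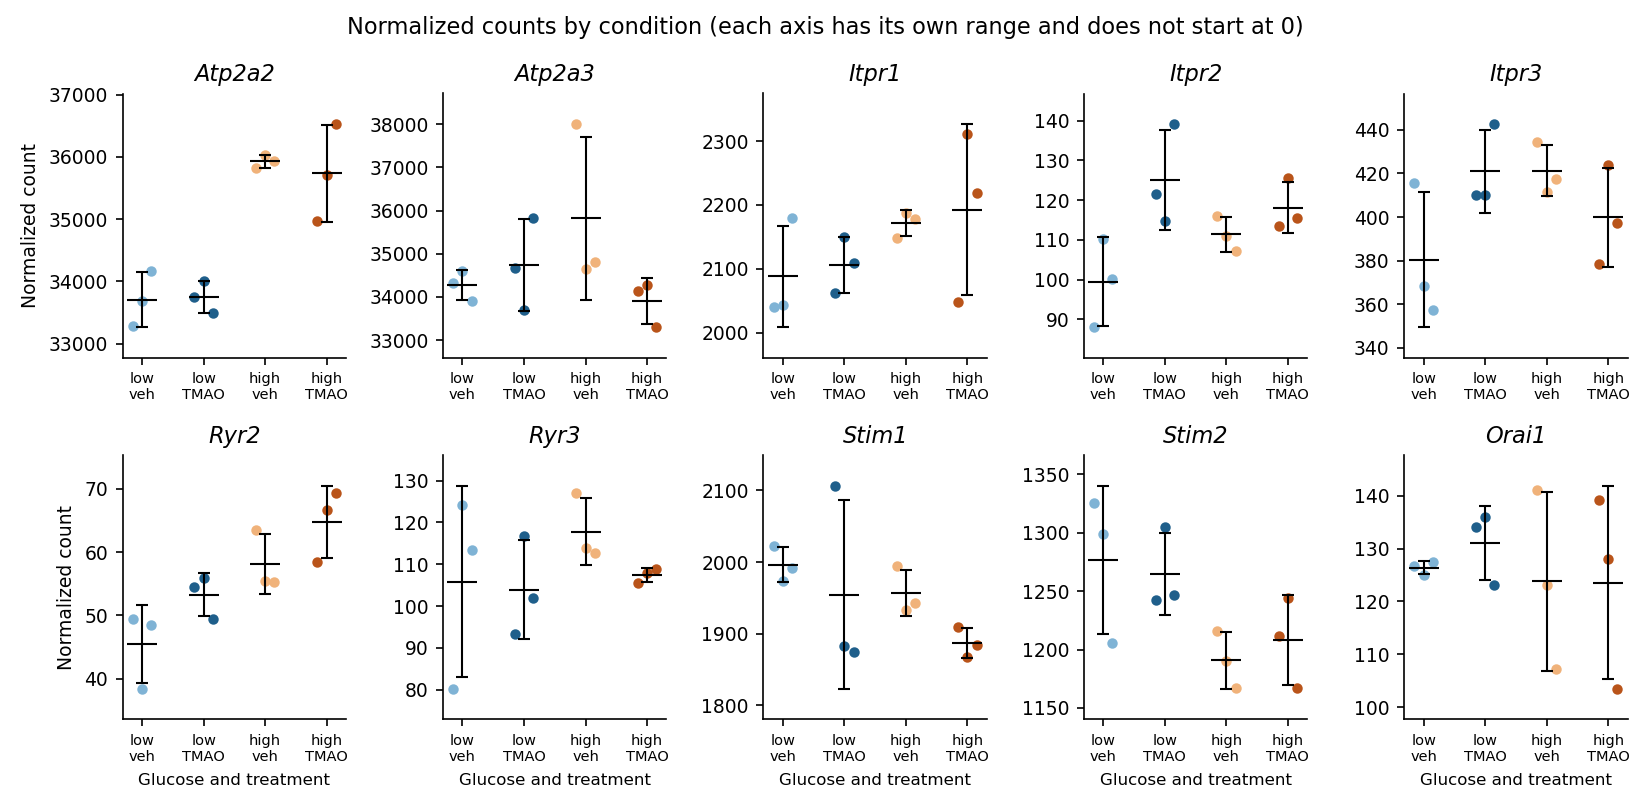
Normalized counts of the 10 genes in each library (points) by condition, with the mean and SD of 3 libraries (bars); each panel has its own axis, which does not start at 0. The Atp2a2 libraries in high glucose (34964 to 36528) sit above those in low glucose (33280 to 34164), while the conditions overlap for most other genes.

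The genes whose log2 CPM (counts scaled to library size) were most like those of 3 genes with the lowest p for glucose were listed by Pearson's r over the 12 libraries, among tested genes with a mean of at least 50 counts. The points share the glucose groups, so r also describes the glucose difference, and library size had been scaled out before. For Atp2a2 they were Zswim4 (r = 0.979), Ttc17 (r = 0.976) and Dffb (r = 0.967). For Ryr2 they were Arpc5l (r = 0.916), Klf10 (r = 0.899) and 2700099C18Rik (r = 0.894). For Stim2 the most alike was Orai2 (r = 0.920), followed by Arrdc3 (r = 0.903) and Tox4 (r = 0.901). Stim2 and Atp2a2 had an r of -0.790, and Ryr2 and Atp2a2 one of 0.741. Normalized counts of Orai2 were 803, 770 and 737 in low glucose with vehicle and 746, 748 and 720 in high glucose with vehicle. With TMAO they were 778, 778 and 768 in low glucose and 745, 755 and 715 in high glucose, where the groups did not overlap, as for 9.43% of tested genes in this direction (log2 fold change -0.069 ± 0.059, SE, adjusted p = 0.664).

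The promoters of Stim2 and Orai2 are shown because Orai2 had the highest r with Stim2 among the genes compared with it. Each is the 250 bases before the RefSeq start (GRCm38.p6), Stim2 at chr5:53998273-53998522 on the plus strand and Orai2 at chr5:136170657-136170906 on the minus strand. The starts of both genes in GENCODE M21 lie inside these windows. Capitals mark CACGTG, the E-box palindrome that reads alike on both strands.
Stim2 promoter: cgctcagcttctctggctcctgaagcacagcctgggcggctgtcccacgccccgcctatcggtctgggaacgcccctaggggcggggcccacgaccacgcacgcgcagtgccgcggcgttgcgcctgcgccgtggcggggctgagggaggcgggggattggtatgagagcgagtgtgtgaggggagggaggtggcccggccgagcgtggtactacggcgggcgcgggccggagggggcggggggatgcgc
Orai2 promoter: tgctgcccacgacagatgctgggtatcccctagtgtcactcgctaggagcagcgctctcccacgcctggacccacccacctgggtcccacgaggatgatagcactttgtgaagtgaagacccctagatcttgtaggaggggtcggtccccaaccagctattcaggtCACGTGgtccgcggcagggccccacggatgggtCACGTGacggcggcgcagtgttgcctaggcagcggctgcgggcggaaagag
The Orai2 window held CACGTG at 84 and 51 bases before the start, and the Stim2 window held none. Of the 10 genes, 7 had a promoter in the table (Atp2a3, Itpr2, Itpr3, Ryr2, Stim1, Stim2 and Orai1), and 1 of these, Itpr3, held CACGTG. Of all 32851 mouse promoters of the same length, 6.02% held it. The cAMP response element TGACGTCA (1.55% of promoters), the AP-1 motif TGANTCA (6.75%), the EGR1 motif GCGTGGGCG (0.536%) and the ER stress response element (ERSE, 0.113%), each searched on both strands, were in none of the 7 windows.

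The wider calcium machinery was followed in 8 lists of 115 genes, of which 110 were in the tables and 92 were tested. With glucose, averaged over treatments, 4 of the 92 were higher and 2 lower at an adjusted p under 0.05, against 4.13% higher and 8.19% in either direction over all tested genes. The median log2 fold change over the 92 was 0.0071. In the list of Serca pumps and their regulators, 1 of 6 tested genes rose, Atp2a2. In that of IP3 and ryanodine receptors and their regulators, 0 of 19 rose and 1 fell. In that of store-operated entry, 2 of 14 rose and 0 fell, with 8 log2 fold changes above 0, 6 below and a median of 0.0057.

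The store-operated entry genes that rose were Trpc1, a cation channel linked to store-operated entry, and Saraf, an ER membrane protein that turns Stim-Orai entry off. Trpc1 had normalized counts of 762 to 918 in low and 953 to 1085 in high glucose, without overlap, and a log2 fold change of 0.26 ± 0.050 (SE; adjusted p = 0.000836). It rose with vehicle (0.26 ± 0.071, SE, adjusted p = 0.0344) and with TMAO (0.25 ± 0.071, SE, adjusted p = 0.0432). The call with vehicle was lost without low-glucose replicate 1 (adjusted p = 0.242) or 2 (0.168) or high-glucose replicate 3 (0.288), and that with TMAO without any library of that treatment but low-glucose replicate 2 (0.0519 to 0.251). Within each treatment the Trpc1 call was also lost in the limma fits on FPKM (adjusted p = 0.164 with vehicle and 0.177 with TMAO), and with TMAO by the DESeq2 Wald test (0.0552) and with at least 10 counts in every library (0.0513). Saraf had 4504 to 4988 in low and 4945 to 5195 in high glucose and a log2 fold change of 0.11 ± 0.030 (SE; adjusted p = 0.0197). Its call was lost without low glucose with vehicle replicate 2 (adjusted p = 0.0513) or 3 (0.0724) or high glucose with vehicle replicate 2 (0.0727). Saraf did not pass with vehicle (0.12 ± 0.043, SE, adjusted p = 0.187) or with TMAO (0.10 ± 0.043, SE, adjusted p = 0.226) alone.

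Outside store-operated entry, Pkd2, an ER calcium-permeable channel, rose by 13.3% (log2 fold change 0.18 ± 0.038, SE, adjusted p = 0.00161), from 1830 to 2128 normalized counts in low to 2113 to 2287 in high glucose. It passed with vehicle (0.20 ± 0.054, SE, adjusted p = 0.0260) and not with TMAO (0.16 ± 0.054, SE, adjusted p = 0.118), and the interaction did not pass (-0.048 ± 0.076, SE, adjusted p = 1.00). The Pkd2 call with vehicle was lost without any library of that treatment but low-glucose replicate 3 (adjusted p = 0.0678 to 0.198) and in both limma fits (0.118 in each). Jph3, which ties the ER to the plasma membrane, fell (log2 fold change -0.18 ± 0.040, SE, adjusted p = 0.00245), from 1523 to 1758 normalized counts in low to 1302 to 1639 in high glucose. With TMAO the Jph3 difference was -0.30 ± 0.057 (SE; adjusted p = 0.00123) and with vehicle -0.071 ± 0.057 (SE; adjusted p = 0.680), and the interaction did not pass (-0.23 ± 0.080, SE, adjusted p = 1.00). The difference with vehicle was -0.12 without high-glucose replicate 1 and -0.040 without replicate 2. Itpkb, a kinase that phosphorylates IP3, fell by 0.096 ± 0.030 on the log2 scale (SE; adjusted p = 0.0418), a call lost in both FPKM fits with limma (adjusted p = 0.0603 and 0.0609) and without each of 9 of the 12 libraries (0.0563 to 0.145). It passed with TMAO (-0.15 ± 0.042, SE, adjusted p = 0.0491) and not with vehicle (-0.047 ± 0.042, SE, adjusted p = 0.723), and the interaction did not pass (-0.099 ± 0.060, SE, adjusted p = 1.00). The Itpkb call with TMAO was lost without any library of that treatment but low-glucose replicate 2 (adjusted p = 0.123 to 0.168), in both limma fits (0.0864 and 0.0882), without a filter on low counts (0.0542) and when the fit held just the compared libraries (0.103). The lists of ER luminal buffers, plasma membrane and Golgi extrusion, and mitochondrial uptake and release held 14, 10 and 9 tested genes. Of these, 0 passed with glucose by edgeR, against 8.19% of all tested genes. At an unadjusted p under 0.05, 2, 1 and 0 were counted, respectively, against 20.1% of all tested genes. With TMAO in low glucose 0 of the 92 genes passed by edgeR, and 2 had an unadjusted p under 0.05, against 2.2% of all tested genes.

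**Figure D5:**
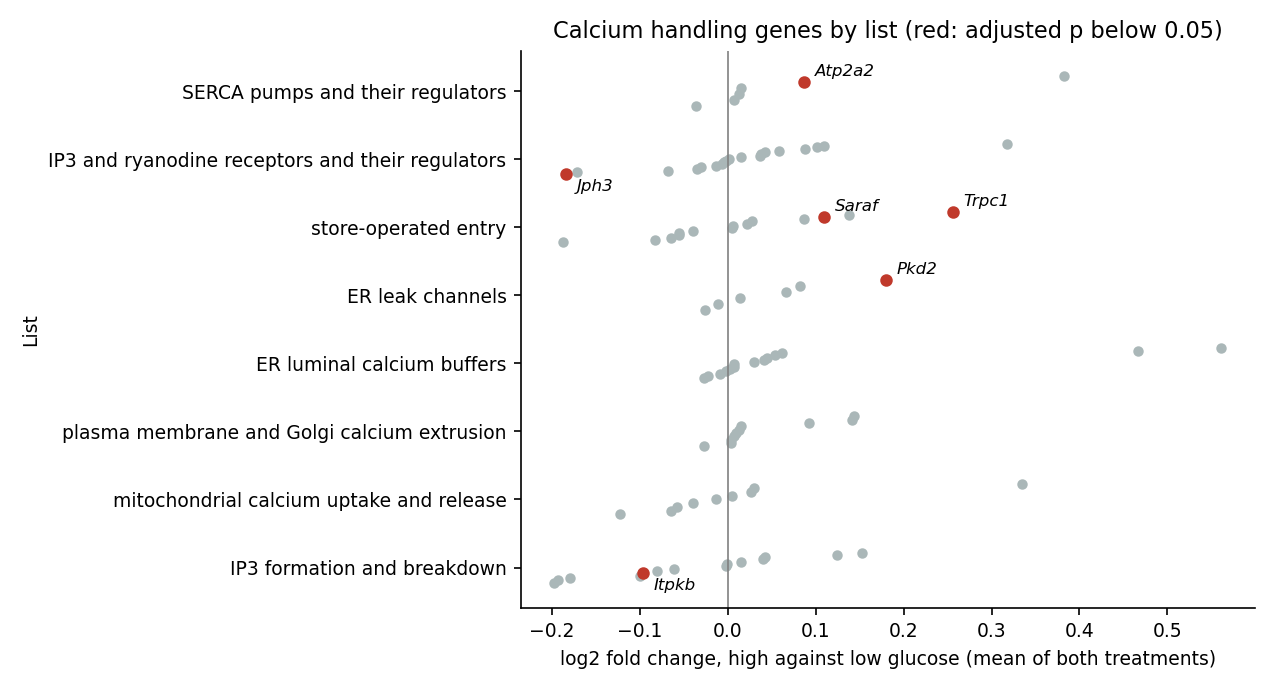
Log2 fold change of high against low glucose (edgeR, mean of both treatments) for each tested gene of the 8 calcium lists, with genes at an adjusted p under 0.05 in red and named. Red points are Atp2a2, Trpc1, Saraf and Pkd2 above 0 and Jph3 and Itpkb below 0, among 92 tested genes.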

How the data were processed

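MIN6 RNA-seq libraries (3 per condition, 12 in all) were grouped by their sample labels. The authors deposited a table of raw counts, fragments per gene without normalization, and a table of FPKM values for the same 54022 genes. The submitters' processing notes name HISAT2 2.0.5, featureCounts 1.5.0-p3, DESeq2 1.16.1 and mm10. The strand setting of the counting was not given in the sources used here. All per-library columns were used.

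Counts were tested in R 4.3.3 with edgeR 4.0.16 (filterByExpr by condition, TMM normalization, robust quasi-likelihood F test) with 1 coefficient per condition fitted to all 12 libraries, Benjamini-Hochberg adjustment over 16222 genes and an adjusted p under 0.05 as the call. The glucose difference was the average of the vehicle and TMAO differences. The 6 comparisons also included glucose within each treatment, TMAO at each glucose level and the interaction. Standard errors were obtained from the F statistic, and counts are printed after scaling by TMM library sizes (normalized counts). FPKM was used to compare levels between genes and in 2 alternative fits.

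The genes named are the 10 genes, Atp2a1, Ryr1, Orai2 and Orai3, each gene of the 8 lists called in any comparison, and the 3 most alike genes of up to 3 members. Pln, Sln and Mrln and the overlapping genes were added after their values were seen. The members and lists were chosen with earlier results of these data known. p-values measure the spread between these cultures. A further marker listed for other islet cells is not reported here. At most 1.75% of counts were mitochondrial. Promoters were taken from RefSeq (GRCm38.p6) and transcripts from GENCODE M21. The steps were tested on simulated data. Alternatives were DESeq2's size factors, the DESeq2 1.42.0 Wald test, 2 other filters, only the libraries of a comparison, a replicate block, FPKM values after adding 1 or 0.1 and taking log2, tested with limma 3.58.1, and omission of each library in turn. Figures used matplotlib 3.10.9.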

Additional observations from a re-analysis of the deposited data

How the results depend on the processing

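Of 940 recomputed values of the 10 genes, 895 kept their direction and their side of the threshold, 37 changed sign, 7 lost a call and 1 gained one. The 7 lost calls were those of Atp2a2 for the mean glucose difference given above, and the gained one was Atp2a2 in glucose with vehicle by the DESeq2 Wald test (adjusted p = 0.0428). No value that had passed the test changed sign. The number of genes called with glucose in TMAO was 591, and 347 and 337 with limma after adding 1 and 0.1 to FPKM. For TMAO in low glucose 1 gene was called, 7 with no filter on low counts, 3 when the fit held just the compared libraries and 0 in both limma fits. For TMAO in high glucose 0 genes were called, 1 by the DESeq2 Wald test, 13 with no filter and 3 when the fit held just the compared libraries. For the interaction 0 genes were called, and 6 with no filter. The cause was not tested. With 1 library left out, the counts of called genes ranged from 981 to 1446 (mean glucose), 328 to 475 (glucose with vehicle), 344 to 657 (glucose with TMAO), 0 to 1 (TMAO in low glucose), 0 to 1 (TMAO in high glucose) and 0 to 2 (interaction); these fits keep 2 libraries in 1 condition. Of 18 same-numbered pairs of libraries, 2 deviated together with a correlation over 0.1 (range -0.037 to 0.21), and the main fit did not pair replicates. By another measure, 9 of 12 libraries correlated best with their own number among the 3 numbers, so the pairing of replicates was not settled. With a replicate block, 1678, 717 and 783 genes were called for the mean glucose difference, glucose with vehicle and glucose with TMAO, and 1, 0 and 0 for TMAO in low and high glucose and the interaction. The sign of Orai2 for TMAO in high glucose turned with at least 10 counts in every library (-0.0017) and with limma after adding 1 (-7.8e-06) and 0.1 (-2.4e-05) to FPKM, and that of Itpr1 for the interaction with at least 10 counts (-0.00098) and with limma after adding 0.1 (-0.00018). Adding 1 to FPKM, more than the levels of Ryr2 and Itpr2, shrank the log2 fold change to 0.029 for Ryr2 (mean glucose) and 0.094 for Itpr2 (TMAO in low glucose). Leaving out 1 library turned the sign of other small log2 fold changes, whose lowest and highest values follow. For the mean glucose difference this was -0.0070 to 0.025 for Atp2a3. For glucose with vehicle it was -0.13 to 0.060 for Orai1 and -0.010 to 0.28 for Ryr3. For glucose with TMAO it was -0.13 to 0.0026 for Itpr2, -0.17 to 0.023 for Orai1, -0.025 to 0.14 for Ryr3 and -0.083 to 0.0062 for Stim1. For TMAO in low glucose it was -0.0073 to 0.011 for Atp2a2, -0.0037 to 0.039 for Atp2a3, -0.0035 to 0.044 for Itpr1, -0.023 to 0.040 for Orai2, -0.19 to 0.10 for Ryr3 and -0.054 to 0.014 for Stim2. For TMAO in high glucose it was -0.026 to 0.010 for Atp2a2, -0.025 to 0.064 for Itpr1, -0.093 to 0.10 for Orai1, -0.017 to 0.020 for Orai2 and -0.0012 to 0.043 for Stim2. For the interaction it was -0.028 to 0.0078 for Atp2a2, -0.038 to 0.051 for Itpr1, -0.15 to 0.049 for Orai1, -0.13 to 0.039 for Ryr2, -0.24 to 0.059 for Ryr3 and -0.052 to 0.034 for Stim1. Among the 10 genes, depth limits Ryr2, Ryr3, Itpr2 and Orai1 most, with at most 152 counts in any library. Atp2a1 had 6 to 23 counts per library, and its mean glucose log2 fold change lay between 0.20 (without low glucose with vehicle replicate 1) and 0.61 (without replicate 3 of that group). Ryr1 had 0 to 3 counts.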
